A study of Mus musculus with 12 samples.

Results

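The nuclear-encoded subunits of oxidative phosphorylation were taken from the count table by symbol: the 4 Sdh genes and every gene whose symbol starts with Ndufa, Ndufb, Ndufc, Ndufs, Ndufv, Uqcr, Cox4i, Cox5, Cox6, Cox7, Cox8 or Atp5. After 8 assembly factors and 5 pseudogenes were dropped, 87 of 27179 genes remained: 38 in complex I, 4 in complex II, 8 in complex III, 20 in complex IV and 17 in complex V. Ndufa4 and its paralogue Ndufa4l2 were counted with complex IV, where the Ndufa4 protein resides. The rule did not use measured values. Ndufb1, which the rule also covers, was not analysed here.

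The cells were luminal and basal epithelial cells sorted by flow cytometry from mammary glands of wild type female FVB/N mice, which carried no transgene and received no treatment. The 6 groups were luminal cells of virgin, day 18.5 pregnant and day 2 lactating mice, and basal cells of the same 3 stages, with 2 libraries each and 2 mice per stage. Luminal cells line the ducts and alveoli and make the milk, and basal cells form the contractile outer layer. The labels do not say which mouse gave which library, so p-values measure the spread between these libraries.

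Each library held 20.02 M to 24.72 M counts in all. The 8 luminal markers, among other lists, separated the sorts: their summed level was 4258 to 13480 CPM (counts scaled to a fixed library total) in luminal libraries and 1144 to 1704 CPM in basal libraries, and the 8 basal markers summed to 64.5 to 406 CPM in luminal libraries and 16250 to 48260 CPM in basal libraries. Lane 1 carried every luminal library and lane 2 every basal library, so cell type and lane cannot be told apart. In such bulk libraries, fewer cells of a kind and less RNA per cell cannot be told apart either.

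Oxidative phosphorylation makes ATP in the inner mitochondrial membrane. Complex I (NADH dehydrogenase) and complex II (succinate dehydrogenase) pass electrons to ubiquinone, complex III passes them to cytochrome c, and complex IV (cytochrome c oxidase) hands them to oxygen. Complex V, the ATP synthase, uses the proton gradient that complexes I, III and IV build. Most subunits are encoded in the nucleus, and the rest in the mitochondrial genome. Milk synthesis is known as a heavy consumer of ATP, and mitochondria of the secretory epithelium are known to increase at lactation.

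Of the 87 members, 82 had enough counts to be tested, 78 of them with at least 10 counts in every library. The 4 tested members with fewer in some library were Cox4i2, Cox6b2, Ndufa4l2 and Ndufb4. Cox6a2, Cox7b2, Cox8b, Cox8c and Uqcr11 were not tested. Cox7b2 and Cox8c had no count in any of the 12 libraries, which allows up to 3 counts in each. Differences are log2 changes of counts scaled by TMM, which sets the bulk of genes level, with standard errors (SE). The test was the quasi-likelihood test of edgeR, Benjamini-Hochberg adjusted over 15969 genes, and a change was called at an adjusted p below 0.05.

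Levels per length, in CPM per kilobase (kb) of the deposited gene length, put members of complexes V and IV on top. Over the 12 libraries the members with the highest mean were Atp5b, the catalytic beta subunit of the ATP synthase, at 584 CPM per kb and Cox4i1, a structural subunit of complex IV, at 452 CPM per kb. Atp5g3 followed at 397, Cox6a1 at 307 and Atp5a1, the alpha subunit of the ATP synthase, at 303 CPM per kb. The median member stood at 47.7 CPM per kb in complex I, 62.6 in complex II, 93.4 in complex III, 67.7 in complex IV and 83.4 in complex V. The highest and lowest tested members were Ndufb9 (153) and Ndufb4 (2.21) in complex I, Sdhc (74.6) and Sdhd (1.08) in complex II, and Uqcrh (190) and Uqcrb (57.8) in complex III. In complex IV they were Cox4i1 and Cox4i2 (0.970), and in complex V Atp5b and Atp5l (5.48 CPM per kb).

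Some low levels belong to genes with near copies among other gene models, which reads can match as well. By alignment of GENCODE vM21 transcripts at 95% identity over at least 100 bases, 25 members had a near copy, 60 had none and 2 could not be matched. Atp5l had 10 such copies, Ndufb4 had 2 and Uqcr11, with 0 to 2 counts per library, had 2. Their part in these levels was not tested. For Ndufb2, Ndufb8 and Ndufb9 the only copy counted is another gene model that overlaps their own exons, and not a copy elsewhere. Pseudogenes were dropped by the RefSeq gene type. Ndufb4c, which RefSeq lists as coding and GENCODE vM21 as a processed pseudogene, was therefore kept, with 20 to 45 counts per library. Ndufb4b, also kept and without a transcript match, summed to 7499 counts over the 12 libraries, against 259 for Ndufb4. How reads were divided between them was not tested. Sdhd, the small membrane anchor of complex II, had no near copy and still stood at 0.394 to 1.84 CPM per kb, while the other 3 Sdh genes ranged from 29.9 to 111 CPM per kb.

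Short stretches around the annotated starts show what some of these genes share that the selection did not use. The 5 windows below were chosen because their genes carry results described further on: Ndufa8, Cox6b1, Atp5b and Atp5g3 hold matches to known motifs, and Cox7a2l holds none. Each runs 5′ to 3′ on the gene's strand from 250 bases before to 50 bases after the RefSeq start (GRCm38.p6). Capitals mark matches to the motifs of NRF1 (GCGCA, any base, then GCGC), ETS factors such as GABPA (CCGGAAG), YY1 (AANATGGCG) or ERR nuclear receptors (TNAAGGTCA), searched on both strands.
Ndufa8, chr2:36049289-36049588, minus strand: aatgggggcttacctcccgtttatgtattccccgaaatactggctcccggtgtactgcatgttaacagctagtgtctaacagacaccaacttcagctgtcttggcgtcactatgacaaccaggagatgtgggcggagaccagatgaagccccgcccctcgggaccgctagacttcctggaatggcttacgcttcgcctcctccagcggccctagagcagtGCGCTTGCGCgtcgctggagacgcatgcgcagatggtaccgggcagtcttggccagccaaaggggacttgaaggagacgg
Cox6b1, chr7:30626065-30626364, minus strand: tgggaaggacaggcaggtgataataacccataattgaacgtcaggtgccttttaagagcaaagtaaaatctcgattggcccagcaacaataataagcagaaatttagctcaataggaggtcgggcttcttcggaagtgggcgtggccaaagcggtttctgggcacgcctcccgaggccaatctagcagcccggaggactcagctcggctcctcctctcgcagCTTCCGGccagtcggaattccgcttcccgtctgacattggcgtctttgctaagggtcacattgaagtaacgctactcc
Atp5b, chr10:128083057-128083356, plus strand: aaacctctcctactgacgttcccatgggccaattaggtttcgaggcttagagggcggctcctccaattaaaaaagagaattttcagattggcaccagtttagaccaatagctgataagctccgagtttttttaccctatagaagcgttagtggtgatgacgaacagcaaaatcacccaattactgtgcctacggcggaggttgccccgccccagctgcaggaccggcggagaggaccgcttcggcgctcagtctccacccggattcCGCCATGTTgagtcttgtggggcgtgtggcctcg
Atp5g3, chr2:73911277-73911576, minus strand: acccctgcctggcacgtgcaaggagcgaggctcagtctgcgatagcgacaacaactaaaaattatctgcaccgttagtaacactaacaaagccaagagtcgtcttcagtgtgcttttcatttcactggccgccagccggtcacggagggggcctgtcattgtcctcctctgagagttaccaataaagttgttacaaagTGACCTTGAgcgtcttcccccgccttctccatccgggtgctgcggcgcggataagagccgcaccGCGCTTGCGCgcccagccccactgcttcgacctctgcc
Cox7a2l, chr17:83514284-83514583, minus strand: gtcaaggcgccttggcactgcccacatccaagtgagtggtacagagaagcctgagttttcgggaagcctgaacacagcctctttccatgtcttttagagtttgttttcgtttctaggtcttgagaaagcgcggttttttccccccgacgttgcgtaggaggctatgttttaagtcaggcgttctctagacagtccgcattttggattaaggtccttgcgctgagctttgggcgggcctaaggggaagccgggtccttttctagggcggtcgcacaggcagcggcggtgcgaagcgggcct

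The Ndufa8 window holds an NRF1 match, the Cox6b1 window an ETS match and the Atp5b window a YY1 match. The Atp5g3 window holds both an NRF1 match and an ERR match. RefSeq gave a window for 70 of the 87 members. Of these 70 genes, 17 (24.3%) had an NRF1 match in a window, 17 (24.3%) an ETS match, 10 (14.3%) a YY1 match and 3 (4.29%) an ERR match. Over 17492 coding genes the shares were 7.17% for NRF1, 12.9% for ETS, 3.64% for YY1 and 1.19% for ERR. At least 1 of the 4 motifs occurred in 54.3% of the 70 genes and in 21.9% of the 17492 coding genes. By complex it was 12 of 15 members in complex V, 17 of 33 in complex I, 3 of 3 in complex II, 3 of 5 in complex III and 3 of 14 in complex IV. The share in complex IV is near that of all coding genes, and no test compared these shares. A match is a string of letters and not a measured site, and a window without one says nothing about the factor. Of the members that fell at luminal lactation, described below, Cox7a2l holds no match and Ndufa7 a YY1 match. Among members that rose in luminal cells, Ndufa1, Ndufc2 and Ndufv3 hold no match, while Atp5o holds an NRF1 match.

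Summed over the 87 members, levels in luminal cells were higher at each later stage, while in basal cells they were highest in pregnancy. The summed TMM-scaled level in luminal libraries was 5979 and 5819 CPM for virgin, 8189 and 8070 CPM for pregnant and 11250 and 11040 CPM for lactating mice. The basal sums were 4434 and 4337 CPM for virgin, 6401 and 6490 CPM for pregnant and 4849 and 4407 CPM for lactating mice. No 2 luminal stages overlapped, and basal lactating lay close to basal virgin. Of the 82 tested members, 69 had their highest group mean in luminal lactating cells, and 56 had their lowest in basal virgin cells. Both counts are on the TMM scale, and the matching shares of all genes are not given here.

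The direction in luminal cells depends on what the counts are set against, since milk protein transcripts fill lactating luminal libraries. Of all luminal counts, the members took 0.818% and 0.794% at the virgin stage, 0.822% and 0.744% at pregnancy and 0.596% and 0.591% at lactation. Of the luminal counts left without milk protein genes, they took 0.835% and 0.810% at the virgin stage, 1.03% and 0.967% at pregnancy and 1.28% and 1.24% at lactation. The lactating luminal shares were thus the lowest of the luminal ones among all counts and the highest among the others. Basal shares of all counts were 0.549% and 0.526% at the virgin stage, 0.720% and 0.695% at pregnancy and 0.502% and 0.479% at lactation, and peaked in pregnancy on both bases.

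**Figure D1:**
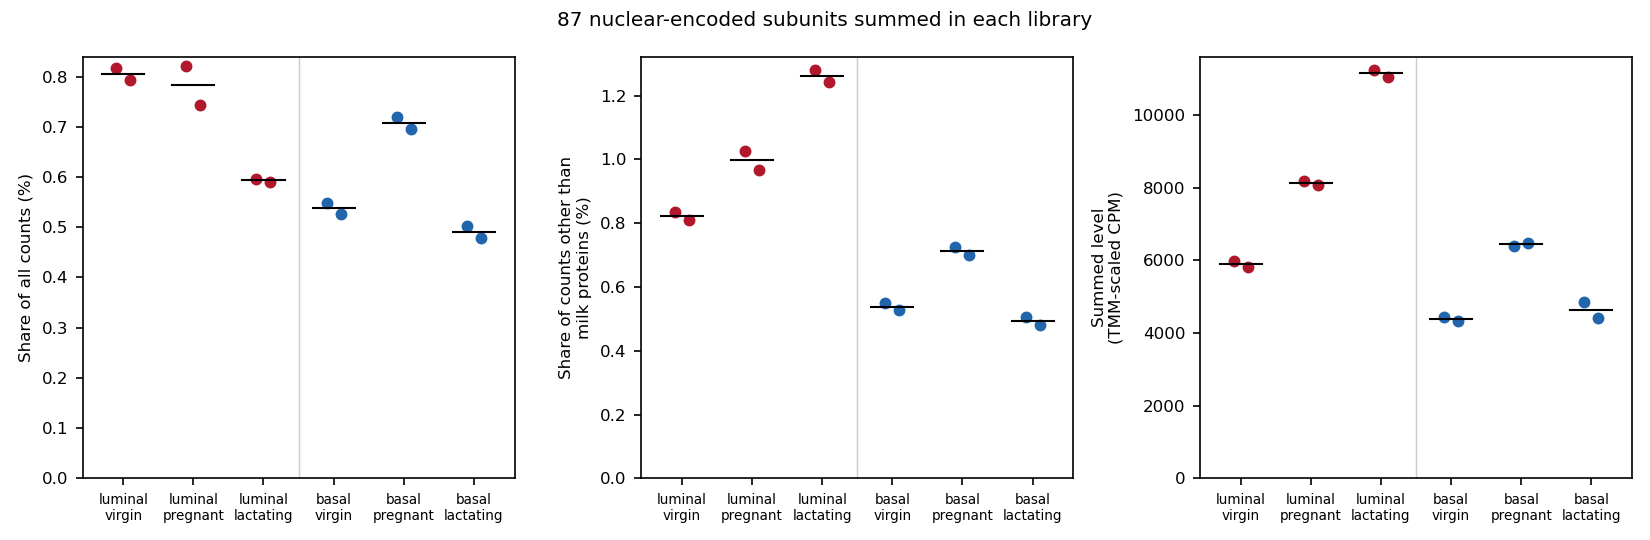
Sum of the 87 nuclear-encoded subunits in each of the 12 libraries as a share of all counts (left), as a share of counts outside milk protein genes (middle) and as TMM-scaled CPM (right). Points are libraries and bars the mean of 2. Luminal lactating libraries are the highest in the middle (1.28% and 1.24%) and right panels (11250 and 11040 CPM), and below luminal virgin and pregnant libraries in the left (0.596% and 0.591%).

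Pregnancy in luminal cells came with higher levels of most subunits, led by accessory subunits of complex I. Relative to virgin luminal cells, 47 of the 82 tested members were called higher and 1 lower in pregnant luminal cells, with a median log2 change of 0.34 (1.27-fold). Of all genes tested, 21.8% were called higher and 24.1% lower, with a median of -0.04. With scaling by library size alone, which shifts the median of all genes by -0.50, the members' median turned to -0.16, with 7 higher and 17 lower. With milk protein genes left out of the library size, 29 were higher and 4 lower. Some markers of other cells were called as well. Of 8 endothelial markers 7 were lower, with sums of 19.8 and 18.2 CPM in pregnant and 48.8 and 74.1 CPM in virgin luminal libraries, and 5 of 8 pericyte markers were lower. Of 8 basal markers 6 were higher, with sums of 336 and 406 CPM in pregnant and 64.5 and 94.8 CPM in virgin luminal libraries. Their part in the members' changes was not tested.

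By complex, 20 of 38 members of complex I rose in pregnant luminal cells, 1 of 4 of complex II, 6 of 7 tested of complex III, 11 of 16 tested of complex IV and 9 of 17 of complex V. Medians ran from 0.29 in complex V to 0.47 in complex III, and all 5 were negative under library size alone. Ndufa1, a small accessory subunit in the membrane arm of complex I, stood at 75.3 and 86.6 CPM in pregnant luminal libraries, against 29.4 and 29.2 CPM in virgin luminal libraries. The groups lie far apart, with a log2 change of 1.47 (SE 0.10, edgeR adjusted p = 2.28e-07). Ndufc2, another accessory subunit of the membrane arm, had 86.2 and 89.3 CPM in pregnant luminal libraries and 41.0 and 40.4 CPM in virgin luminal libraries. Its log2 change was 1.11 (SE 0.09, edgeR adjusted p = 1.11e-06), again without overlap. Ndufb6, also of this arm, had 59.8 and 78.4 CPM in pregnant against 36.5 and 31.3 CPM in virgin luminal libraries, a change of 1.03 (SE 0.14, edgeR adjusted p = 5.94e-05). Other genes overlap 39.0% of its exon bases in GENCODE vM21, and the strand setting of the counts is not given in the sources used here.

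The exception in pregnancy was Cox6b2, an isoform of a complex IV subunit known from testis. It stood at 0.627 and 1.09 CPM in pregnant luminal libraries, against 2.22 and 1.79 CPM in virgin luminal libraries. It fell by 1.23 on the log2 scale (SE 0.30, edgeR adjusted p = 0.0046). Without pregnant luminal replicate 1 the change was -0.89 and no longer called. Its ubiquitous counterpart Cox6b1 was called higher, by 0.47 (SE 0.11, edgeR adjusted p = 0.00285).

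From pregnancy to lactation luminal cells raised a larger share of the subunits relative to other genes. In lactating against pregnant luminal cells, 61 members were called higher and 2 lower, with a median log2 change of 0.46 (1.37-fold). Of all genes tested, 23.7% were called higher and 24.6% lower in this comparison. With library size alone the median of all genes shifts by -0.85 and the members' median turned to -0.39, with 0 higher and 49 lower. With milk protein genes left out of the library size, 49 were higher and 2 lower. Of 8 luminal markers 1 was called higher and 7 lower, with sums of 4982 and 4258 CPM in lactating and 10750 and 13480 CPM in pregnant luminal libraries, and their part was not tested.

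The rise spread over every complex: 29 of 38 members of complex I, 3 of 4 of complex II, 6 of 7 tested of complex III, 9 of 16 tested of complex IV and 14 of 17 of complex V. Medians lay between 0.43 and 0.50 and, with library size alone, between -0.42 and -0.36. Within complex I, 6 of 7 core subunits and 23 of 31 accessory subunits were called higher. All 5 subunits of the catalytic head and central stalk of complex V were called higher, with a median of 0.39.

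Atp5o, the peripheral stalk subunit that holds the catalytic head (OSCP), had 159 and 155 CPM in lactating luminal libraries, against 80.7 and 78.4 CPM in pregnant ones. Its log2 change of 0.98 (SE 0.10, edgeR adjusted p = 5.6e-06) leaves the groups far apart, but it has 2 near copies and other gene models overlap 47.9% of its exon bases. The overlapping models include a second record named Atp5o, and 1 of the 2 near copies is a pseudogene. Cox7a2, the ubiquitous isoform of a small complex IV subunit, had 19.0 and 18.2 CPM in lactating and 9.36 and 9.61 CPM in pregnant luminal libraries. It changed by 0.97 (SE 0.15, edgeR adjusted p = 0.000152). Ndufs1, the largest iron-sulfur core subunit of complex I, had 118 and 117 CPM in lactating and 62.1 and 58.1 CPM in pregnant luminal libraries. It changed by 0.97 (SE 0.09, edgeR adjusted p = 3.07e-06), and its groups do not overlap either. With library size alone these 3 changes shrank to 0.12, 0.12 and 0.11 and were not called.

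The members that fell at lactation in luminal cells were Cox7a2l and Ndufa7. Cox7a2l, a relative of the Cox7a isoforms that joins complexes III and IV into supercomplexes, had 43.8 and 49.1 CPM in lactating luminal libraries, against 84.7 and 84.6 CPM in pregnant luminal libraries. It fell by 0.87 on the log2 scale (SE 0.15, edgeR adjusted p = 0.000347), and the groups lie apart. A stretch of 17.8% of its transcript matches another gene model, a pseudogene. Ndufa7, an accessory subunit of the matrix arm of complex I, had 42.5 and 46.3 CPM in lactating and 54.1 and 61.3 CPM in pregnant luminal libraries. It fell by 0.38 (SE 0.11, edgeR adjusted p = 0.015). That call was lost without lactating luminal replicate 1 (-0.28), without lactating luminal replicate 2 (-0.41) and without pregnant luminal replicate 2 (-0.27).

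Over the whole course, 68 members were higher and 3 lower in lactating than in virgin luminal cells, with a median of 0.84 (1.79-fold), while 26.7% of all genes were called higher and 33.5% lower. With library size alone the median was -0.52, with 3 higher and 55 lower. The largest rises were those of Ndufa1 at 2.03 (SE 0.10), Atp5o at 1.82 (SE 0.10) and Ndufv3, an accessory subunit next to the NADH site, at 1.78 (SE 0.13), with edgeR adjusted p-values of 6.17e-09, 1.34e-08 and 1.2e-07. Ndufv3 had 80.3 and 86.8 CPM in lactating luminal libraries, against 26.0 and 22.8 CPM in virgin ones. Cox6b2 fell by 2.12 (SE 0.37), Cox7a2l by 0.49 (SE 0.14) and Ndufa7 by 0.42 (SE 0.11), with edgeR adjusted p-values of 0.000316, 0.0102 and 0.00618. The last 2 were not called without lactating luminal replicate 1 (-0.38 for Cox7a2l and -0.33 for Ndufa7).

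Basal cells raised the subunits in pregnancy and lowered them at lactation. In pregnant against virgin basal cells, 66 of 82 tested members were called higher and 0 lower, with a median log2 change of 0.53 (1.45-fold). The background in this comparison was 15.6% of all genes called higher and 14.4% lower. Milk protein genes are a small part of basal libraries, and with library size alone 49 members were still higher and 1 lower. At an unadjusted p below 0.05 edgeR had 1 member lower, and DESeq2 called 0 lower. The count of higher members held at 54 to 66 when any library was left out. Of 8 endothelial markers 7 were lower, with sums of 97.9 and 121 CPM in pregnant and 210 and 345 CPM in virgin basal libraries, and their part was not tested.

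In complex I, 32 of 38 members were higher in pregnant basal cells, core subunits 7 of 7. In complexes II to V the counts were 3 of 4, 6 of 7 tested, 10 of 16 tested and 15 of 17. Ndufa8, an accessory subunit on the intermembrane face of complex I, had 5.17 and 5.81 CPM in pregnant basal libraries, against 2.75 and 2.35 CPM in virgin basal libraries. It changed by 1.10 (SE 0.20, edgeR adjusted p = 0.00143), with no overlap. Uqcr10, a small subunit of complex III, had 41.5 and 44.5 CPM in pregnant and 21.5 and 20.8 CPM in virgin basal libraries, a change of 1.02 (SE 0.11, edgeR adjusted p = 3.51e-05). Ndufa11, an accessory subunit of the membrane arm of complex I, had 72.2 and 74.3 CPM in pregnant and 44.4 and 33.8 CPM in virgin basal libraries, a change of 0.90 (SE 0.12, edgeR adjusted p = 0.000204). All 3 sets of libraries are separate, though the virgin pair of Ndufa11 spreads widely.

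Lactation turned the direction in basal cells. In lactating against pregnant basal cells, 0 members were called higher and 50 lower, with a median log2 change of -0.37, while 15.7% of all genes were called higher and 17.4% lower. Library size alone gave 0 higher and 54 lower. At an unadjusted p below 0.05 edgeR had 1 member higher and 57 lower, and DESeq2 called 0 higher and 45 lower. The count of lower members fell to 19 without lactating basal replicate 2, to 25 without pregnant basal replicate 2 and to 31 without pregnant basal replicate 1. Of 8 luminal markers 2 were called higher and 5 lower, with sums of 1704 and 1433 CPM in lactating and 1293 and 1313 CPM in pregnant basal libraries. Of 7 tested leukocyte markers 1 was higher and 4 were lower, and the part of these cells was not tested.

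Complex V had the largest share of calls, with 14 of 17 members lower, including 5 of 5 subunits of the catalytic head and central stalk at a median of -0.60. Complex III had 5 of 7 tested members lower, complex IV 10 of 16 tested, complex I 20 of 38 and complex II 1 of 4. In complex I the lower calls covered 2 of 7 core subunits and 18 of 31 accessory subunits. No test compared the complexes with each other.

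Atp5g1, an isoform of the proton-carrying c-ring of the ATP synthase, had 18.1 and 15.2 CPM in lactating basal libraries, against 31.6 and 29.8 CPM in pregnant basal libraries. It fell by 0.89 on the log2 scale (SE 0.12, edgeR adjusted p = 0.000206). A pseudogene matches 59.5% of its transcript at 99.8% identity, so its reads may be split. Atp5b, whose window is printed above, had 801 and 695 CPM in lactating and 1279 and 1235 CPM in pregnant basal libraries, and fell by 0.75 (SE 0.12, edgeR adjusted p = 0.000577). Atp5g3, the most abundant c-ring isoform, had 172 and 143 CPM in lactating and 255 and 266 CPM in pregnant basal libraries, and fell by 0.73 (SE 0.11, edgeR adjusted p = 0.000448). For all 3 genes both lactating libraries lie below both pregnant ones.

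**Figure D2:**
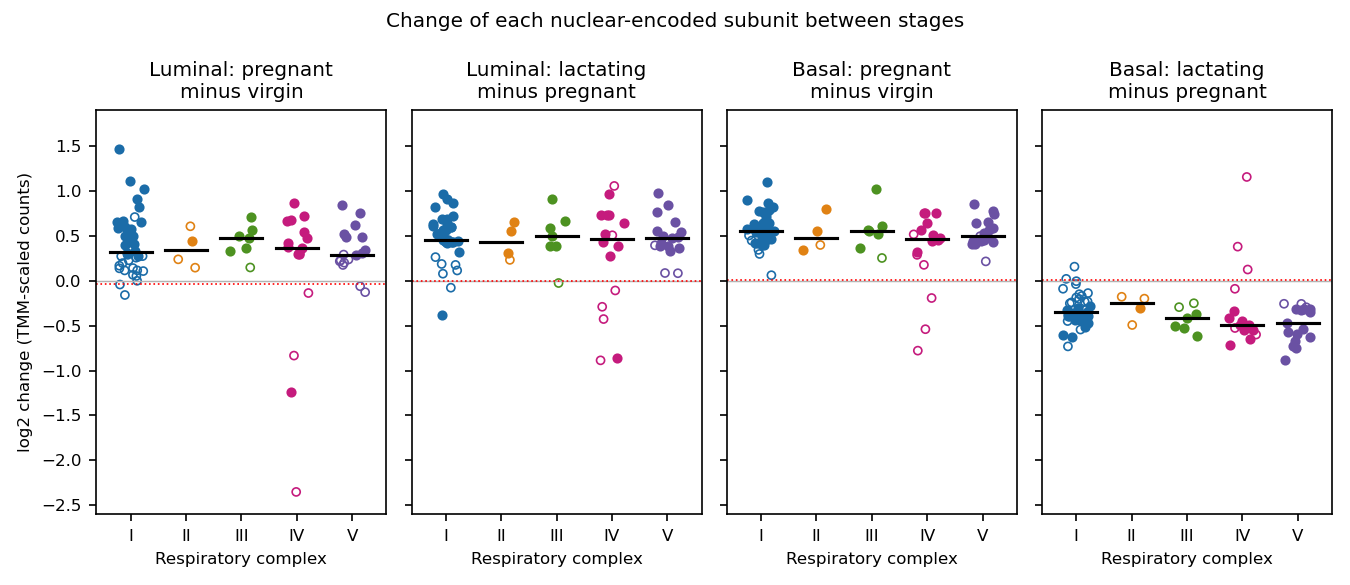
Log2 change of each of the 82 tested subunits between stages, by complex, in luminal (2 left panels) and basal cells (2 right panels) on the TMM scale. Filled points were called, open points were not, bars are medians per complex and the dotted line is the median of all genes. Most points lie above 0 in both pregnancy panels and in luminal lactation, and below 0 in basal lactation (median -0.37). Scaled by library size alone, the luminal medians turn negative (-0.16 and -0.39).

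Lactating basal cells were back near the virgin level. Against virgin basal cells 23 members were higher and 3 lower, with a median of 0.15, at a background of 23.7% of all genes called higher and 23.7% lower. Under library size alone the median was -0.062, with 4 higher and 9 lower, and with milk protein genes left out it was -0.054, with 6 higher and 9 lower. The count of higher members was 9 without lactating basal replicate 1 and 13 without virgin basal replicate 2. Complex I held 17 of the 23 higher calls.

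Among the calls of this comparison, Ndufs5, a subunit of the intermembrane side of complex I, had 7.89 and 6.21 CPM in lactating and 5.08 and 3.94 CPM in virgin basal libraries, a change of 0.64 (SE 0.18, edgeR adjusted p = 0.0121). Ndufa8 changed by 0.65 (SE 0.21, edgeR adjusted p = 0.0199). Neither was called with library size alone (0.43 and 0.44), nor without lactating basal replicate 1 (0.46 and 0.59) or virgin basal replicate 2 (0.47 and 0.54), and Ndufa8 also not without lactating basal replicate 2 (0.71). Atp5g1 fell by 0.44 (SE 0.12, edgeR adjusted p = 0.00778) and Cox5a, which carries a matrix-facing part of complex IV, by 0.32 (SE 0.10, edgeR adjusted p = 0.0196). Both lost their calls without lactating basal replicate 2 (-0.32 and -0.25) or without virgin basal replicate 1 (-0.32 and -0.31).

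The lactation step differed between the cell types for most subunits. Of the 61 members called higher in luminal cells at lactation, 45 (73.8%) were called lower in basal cells, and these are 90.0% of the 50 members lower in basal cells. The difference of the 2 changes, luminal minus basal, was called higher for 64 of 82 tested members and lower for 1, with a median of 0.85, while 18.3% of all genes were called higher and 18.0% lower. All 45 members with opposite calls were among the 64, which opposite calls all but ensure, as the 2 changes add up in the difference. The share of all genes with such opposite calls is not given here. By library size alone the median difference was 0.05, with 12 higher and 7 lower, as the median of all genes shifts by -0.80, and with milk protein genes left out 62 were higher and 1 lower.

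By complex the difference was called higher for 31 of 38 members of complex I, 3 of 4 of complex II, 6 of 7 tested of complex III, 9 of 16 tested of complex IV and 15 of 17 of complex V. Atp5o and Atp5g1 differed by 1.65 each (SE 0.14 and 0.16), with edgeR adjusted p-values of 5.23e-06 and 1.27e-05. Uqcrq, a small subunit of complex III, differed by 1.53 (SE 0.14, edgeR adjusted p = 1.11e-05). It had 133 and 133 CPM in lactating and 71.7 and 69.8 CPM in pregnant luminal libraries, and 38 and 36.3 CPM in lactating and 57.9 and 56.0 CPM in pregnant basal libraries. Both cell types moved, in opposite directions. Cox7a2l differed the other way, by -0.99 (SE 0.20, edgeR adjusted p = 0.0023), with 49.5 and 48.7 CPM in lactating and 43.2 and 46.9 CPM in pregnant basal libraries, where it was not called.

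On the TMM scale the difference in the pregnancy step was called higher for 1 member and lower for 13, with a median of -0.17, at a background of 14.0% of all genes higher and 16.7% lower. With library size alone it was called higher for 0 and lower for 42, with a median of -0.51, while the median of all genes shifted by -0.34. The lactation step then had 12 higher and 7 lower, so which of the steps had more members called turned with the scaling. With all genes kept, the pregnancy step had 2 higher and 6 lower. With the replicate number as a block the counts were 2 higher and 13 lower, and with a block per stage 3 higher and 17 lower. Leaving out single libraries gave 3 to 12 lower, with 3 without pregnant basal replicate 2 and 4 without virgin luminal replicate 1. The 44 members called higher in both cell types were 93.6% of the 47 in luminal and 66.7% of the 66 in basal cells. The share of all genes called higher in both is not given here. Ndufa1 rose more in luminal cells, by 0.64 (SE 0.14, edgeR adjusted p = 0.00396), with 50.9 and 52.2 CPM in pregnant and 29.9 and 28.4 CPM in virgin basal libraries. Under library size alone that difference was 0.30 and not called.

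Members whose luminal change lay below their basal change were led by Cox6b2 (-1.41, SE 0.38), Ndufa8 (-0.81, SE 0.28) and Uqcr10 (-0.66, SE 0.15), with edgeR adjusted p-values of 0.0138, 0.0427 and 0.00543. Uqcr10 had 49.0 and 50.7 CPM in pregnant and 38.4 and 39.2 CPM in virgin luminal libraries, a gap much below that of its basal libraries. Cox6b2, which fell in pregnant luminal cells, had 3.80 and 4.62 CPM in pregnant and 3.72 and 3.71 CPM in virgin basal libraries. Ndufa8 had 4.66 and 5.57 CPM in pregnant and 3.77 and 4.59 CPM in virgin luminal libraries, which nearly touch. Its difference was not called with all genes kept (-0.82), with DESeq2 (-0.83), or without any of 10 of the 12 libraries, and that of Cox6b2 not without 3 of the 12.

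Complex II is the only complex with no mitochondrially encoded subunit. At lactation the luminal minus basal difference of the changes was called higher for its members Sdha (0.83), Sdhb (0.85) and Sdhc (0.51). In the pregnancy step, as in complex I, members of complex II moved unlike each other. Sdha, its catalytic flavoprotein, had 145 and 147, 201 and 195, and 317 and 307 CPM in virgin, pregnant and lactating luminal libraries, and 88.7 and 85.4, 112 and 109, and 100 and 95.6 CPM at these stages in basal libraries. Luminal libraries were above basal libraries at every stage, by 0.74 (SE 0.09) at the virgin stage, 0.84 (SE 0.09) at pregnancy and 1.67 (SE 0.09) at lactation, with edgeR adjusted p-values of 1.2e-05, 2.65e-06 and 3.26e-09. Sdhc, a membrane anchor, had 73.9 and 68.2, 76.3 and 81.0, and 99.1 and 96.5 CPM in the luminal libraries of these stages, and 64.8 and 66.4, 111 and 119, and 103 and 96.2 CPM in basal libraries. Pregnant luminal libraries were below pregnant basal libraries, with a log2 difference of -0.54 (SE 0.09, edgeR adjusted p = 0.000181), and the pregnancy changes differed by -0.66 (SE 0.13, edgeR adjusted p = 0.00231).

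Sdhb, the iron-sulfur subunit, rose in lactating against pregnant luminal cells by 0.55 (SE 0.10, edgeR adjusted p = 0.0006) and fell in lactating against pregnant basal cells by 0.30 (SE 0.10, edgeR adjusted p = 0.0368). Its levels were 64.1 and 61.5, 79.4 and 68.8, and 105 and 113 CPM in virgin, pregnant and lactating luminal libraries, and 58.4 and 53.1, 81.2 and 82.6, and 66.3 and 66.9 CPM in basal libraries. All these levels of the Sdh genes are on the TMM scale. Library size alone shifts the median of all genes by -0.85 in lactating against pregnant luminal cells, which exceeds the Sdhb rise. Sdhd had 0.506 to 2.37 CPM, and of its stage changes none was called.

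Luminal cells had higher subunit levels than basal cells at each stage on the TMM scale. In virgin mice 61 members were higher and 3 lower in luminal cells, with a median of 0.54, at a background of 31.2% of all genes higher and 31.5% lower. In pregnant mice 41 were higher and 5 lower (median 0.40), against 33.9% and 35.9% of all genes. In lactating mice 74 were higher and 3 lower (median 1.18, 2.27-fold), against 35.4% and 39.2% of all genes. Scaled by library size alone, the medians were 0.70, 0.21 and 0.19, and 31 members were higher and 13 lower in lactating mice.

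Ndufa7 led in virgin mice, with 61.4 and 57.3 CPM in luminal and 25.7 and 24.7 CPM in basal libraries, a difference of 1.24 (SE 0.11, edgeR adjusted p = 9.84e-07). Cox6b1, whose window holds an ETS match, differed by 0.94 (SE 0.11) and Ndufb7, an accessory subunit of the membrane arm, by 0.89 (SE 0.11), with edgeR adjusted p-values of 7.56e-06 and 1.39e-05. In pregnant mice Ndufv3 (1.22, SE 0.13), Cox5a (1.12, SE 0.10) and Cox4i1 (1.10, SE 0.11) led, with edgeR adjusted p-values of 2.16e-06, 5.3e-07 and 1.71e-06. Cox4i1 had 504 and 514 CPM in pregnant luminal libraries, against 228 and 248 CPM in pregnant basal libraries.

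In lactating mice the leading members were Atp5g1, with 97.5 and 98.3 CPM in luminal and 18.1 and 15.2 CPM in basal libraries, and Cox5a, with 228 and 229 CPM in luminal and 42.1 and 38 CPM in basal libraries. Their differences were 2.56 (SE 0.12, edgeR adjusted p = 7.45e-10) and 2.51 (SE 0.11, edgeR adjusted p = 3.2e-10). Atp5o differed by 2.45 (SE 0.10, edgeR adjusted p = 3.35e-10). Ndufa11 went against its complex in virgin mice, with 29.9 and 29.5 CPM in luminal and 44.4 and 33.8 CPM in basal libraries. Its difference of -0.40 (SE 0.12, edgeR adjusted p = 0.014) was not called without virgin luminal replicate 1 (-0.41) or 2 (-0.39), without virgin basal replicate 1 (-0.19), or with either library size scaling (-0.24 and -0.22).

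**Figure D3:**
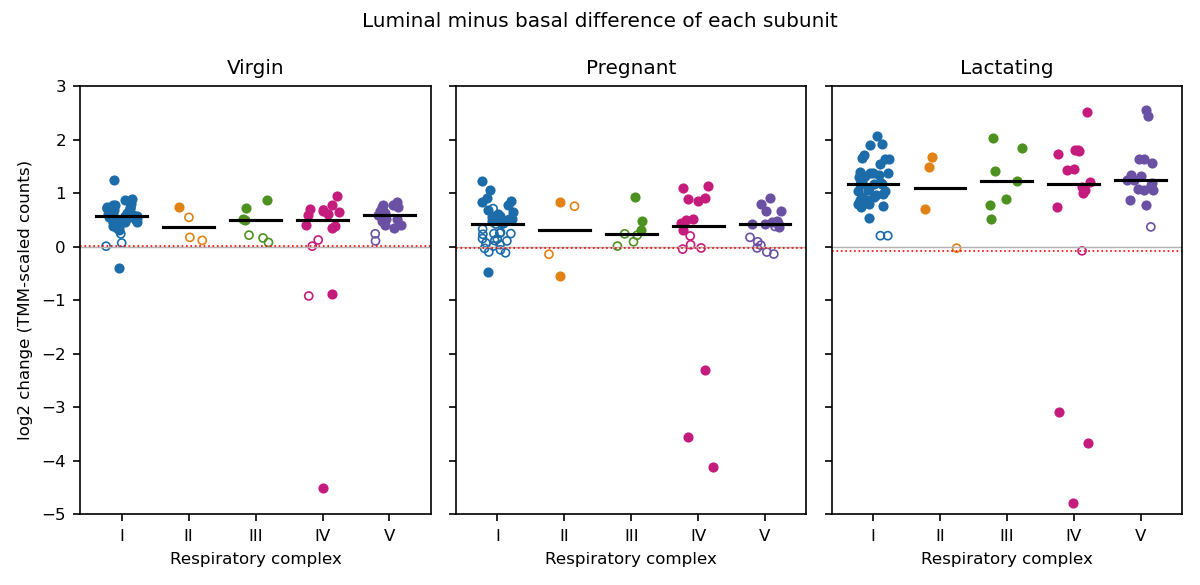
Luminal minus basal log2 difference of each of the 82 tested subunits, by complex, at each stage on the TMM scale. Filled points were called, open points were not, bars are medians and the dotted line is the median of all genes. The medians over all subunits are 0.54 (virgin), 0.40 (pregnant) and 1.18 (lactating), and the low points of complex IV are Ndufa4l2, Cox4i2 and Cox6b2. By library size alone the medians keep their sign (0.70, 0.21 and 0.19).

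Complex IV has tissue isoforms for several small subunits, and the ubiquitous form prevailed in both cell types. Per length, Cox4i1 ranged from 236 to 757 CPM per kb, and Cox4i2, the isoform known from lung and induced by low oxygen, from 0.0678 to 3.33 CPM per kb. Cox6a1 ranged from 151 to 629 CPM per kb and its heart and muscle isoform Cox6a2 from 0 to 0.136. Cox8a ranged from 152 to 551 CPM per kb, and Cox8b, known from muscle and brown fat, from 0 to 0.740 with its highest values in pregnant luminal libraries, where it had 6 and 4 counts. Ndufa4 ranged from 170 to 496 CPM per kb and its paralogue Ndufa4l2 from 0 to 3.08 CPM per kb. Cox7b ranged from 40.4 to 162 CPM per kb, while Cox7b2 was at 0.

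The Cox7a family did not follow that pattern. Per length, the supercomplex factor Cox7a2l was the highest of the family in every library, at 36.5 to 73.7 CPM per kb. The ubiquitous Cox7a2 had 11.4 and 9.18, 12.4 and 12.8, and 25.2 and 24.1 CPM per kb in virgin, pregnant and lactating luminal libraries, and 7.70 to 12.3 CPM per kb in basal libraries. The muscle isoform Cox7a1 had 13.1 and 13.5, 9.06 and 5.79, and 11.3 and 9.94 CPM per kb in luminal libraries, and 8.27 and 18.3, 7.76 and 7.66, and 5.39 and 4.77 CPM per kb in basal libraries. In virgin libraries of both cell types Cox7a1 was thus above Cox7a2, which had 7.70 and 8.03 CPM per kb in virgin basal libraries.

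In basal cells Cox7a1 had 1.97 and 1.75 CPM in lactating and 3.03 and 6.70 CPM in virgin libraries, and fell by 1.38 on the log2 scale (SE 0.34, edgeR adjusted p = 0.00553). Virgin basal replicate 2 is high here, and without it the change was -0.71 and not called. That library also had the highest summed level of 8 endothelial markers, at 345 CPM, against 210 CPM in the other virgin basal library and 105 and 126 CPM in the lactating basal libraries. Of these 8 markers, 0 were called higher and 6 lower in lactating against virgin basal cells. Their part in the Cox7a1 change was not tested. The 7 brown adipocyte markers summed to 17.7 and 17.2 CPM in lactating and 11.3 and 13.4 CPM in virgin basal libraries, with Ucp1 at 2.69 and 2.44 against 2.57 and 2.42 CPM. The 8 adipocyte markers summed to 173 and 163 CPM in lactating and 148 and 275 CPM in virgin basal libraries, and virgin basal replicate 2 is the highest of the 12 libraries in this sum too. Fabp4 gave 109 and 116 CPM of it in lactating and 137 and 258 CPM in virgin basal libraries. Of the 4 adipocyte markers tested, 2 were called higher and 2 lower in lactating against virgin basal cells, and the part of these cells in the Cox7a1 change was not tested.

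The c-ring isoforms of complex V, which are known to yield the same mature protein, also parted. Atp5g3 had luminal levels of 311 and 299 CPM per kb at the virgin stage, 517 and 515 at pregnancy and 730 and 703 at lactation. Atp5g1 had 43.4 and 43.0, 68.9 and 63.8, and 112 and 113 CPM per kb at these stages. Atp5g2 had 128 and 118, 113 and 112, and 115 and 123 CPM per kb, and neither luminal step of it was called, with log2 changes of -0.13 (SE 0.10) in pregnant against virgin and 0.09 (SE 0.11) in lactating against pregnant cells. Its near copies are 2 pseudogenes, which match part of the transcript at up to 100% identity. In lactating basal cells all 3 were called lower than in pregnant basal cells, where Atp5g2 fell by 0.35 (SE 0.11, edgeR adjusted p = 0.0233).

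**Figure D4:**
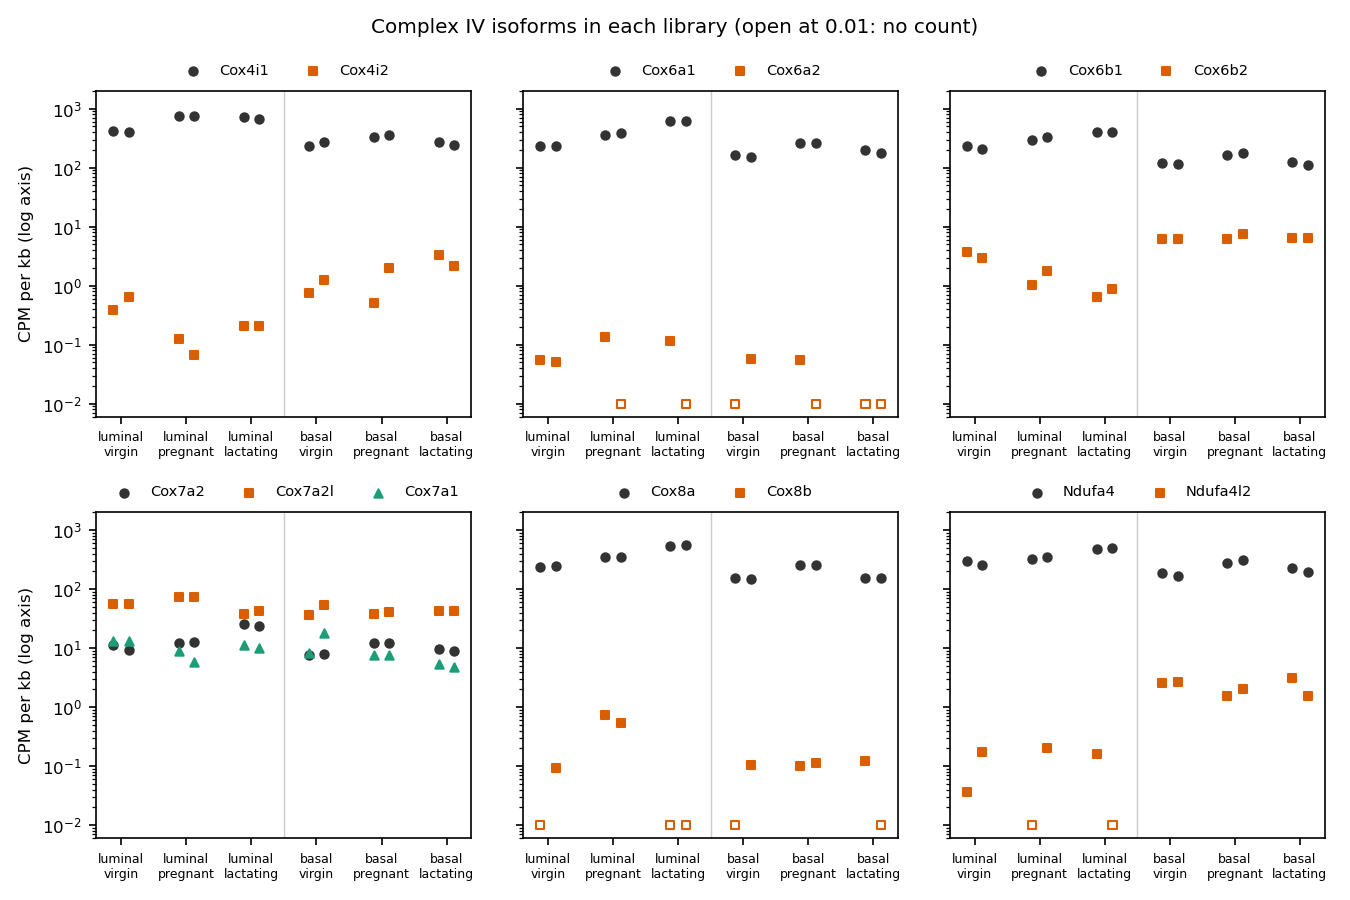
Level per length (CPM per kb, log axis) of the complex IV isoforms in each library, by group, with luminal groups left of basal groups. Points are single libraries, and an open point at 0.01 stands for a library without a count. Cox4i1, Cox6a1, Cox6b1, Cox8a and Ndufa4 exceed 100 CPM per kb in every library, while Cox7a2, Cox7a2l and Cox7a1 all lie between 4.77 and 73.7.

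The tissue isoforms Ndufa4l2, Cox4i2 and Cox6b2 were the members most unlike the rest between the cell types. Cox6b2 had 0.382 and 0.530 CPM in lactating luminal and 3.95 and 3.95 CPM in lactating basal libraries, a difference of -3.10 (SE 0.35, edgeR adjusted p = 3.98e-06). In pregnant mice its difference was -2.30 (SE 0.28, edgeR adjusted p = 1.08e-05), and in virgin mice -0.89 (SE 0.25, edgeR adjusted p = 0.00692), the last not called without virgin luminal replicate 2 (-0.74). Basal levels of Cox6b2 stayed at 3.71 to 4.62 CPM over the stages, while luminal levels ranged from 0.382 to 2.22 CPM.

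Ndufa4l2, a paralogue of Ndufa4 known to be induced by low oxygen and in mural cells of vessels, had few luminal counts. It summed to 6 counts in virgin luminal and 138 in virgin basal libraries, to 4 and 88 in pregnant mice and to 2 and 99 in lactating mice. The ratio of luminal over basal, scaled by effective library size, was 0.0417 at the virgin stage (95% interval 0.015 to 0.0931), 0.0548 at pregnancy (0.0146 to 0.145) and 0.0339 at lactation (0.00404 to 0.126). These exact intervals cover counting error only. The edgeR adjusted p-values were 6.88e-05, 0.000344 and 0.000288, for fitted log2 differences of -4.52, -4.11 and -4.79. Ndufa4l2, with 0 to 5 counts per luminal library, passed the count filter through its basal libraries alone. The filter thus favoured this direction, and the p-values add no support to it. With so few luminal counts the fitted values of Ndufa4l2 depend on the prior count and on single libraries. Without luminal lactating replicate 1 the lactation value was -8.75 and without luminal lactating replicate 2 it was -3.80. Without luminal pregnant replicate 2 the pregnancy value was -8.32 and without luminal pregnant replicate 1 it was -3.08, and the virgin value was -5.92 without luminal virgin replicate 2 and -3.85 without luminal virgin replicate 1. Cox4i2 summed to 22 luminal and 40 basal counts at the virgin stage, to 3 and 45 at pregnancy and to 4 and 88 at lactation. Its ratios were 0.528 (0.299 to 0.909), 0.0804 (0.016 to 0.25) and 0.0762 (0.0203 to 0.202), called in pregnant and lactating mice (edgeR adjusted p = 0.00242 and 0.000788). Cox4i2 had 1 to 14 counts per luminal library and also passed the filter through basal libraries, so these p-values add no support either. The fitted difference of Cox4i2 in pregnant mice, -3.57, was -2.31 without basal pregnant replicate 2 and -4.26 without basal pregnant replicate 1.

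Within basal cells Cox4i2 had 2.42 and 1.56 CPM in lactating, against 0.556 and 0.908 CPM in virgin libraries. It changed by 1.45 (SE 0.51, edgeR adjusted p = 0.0325), and that call was lost without lactating basal replicate 1 (1.09), without virgin basal replicate 1 (1.13), with DESeq2 (1.47) and with either library size scaling (1.24 with each). The 2 pregnant basal libraries, at 0.369 and 1.44 CPM, span most of the range.

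Of 8 pericyte markers, 7 were called lower and 1, Notch3, higher in luminal than in basal cells at each of the 3 stages. Rgs5, a marker of pericytes, had 0.493 to 2.03 CPM in luminal and 6.47 to 14.7 CPM in basal libraries. The summed pericyte list, to which Notch3 contributes most in luminal libraries, ranged from 75.8 to 170 CPM in luminal and 70.4 to 109 CPM in basal libraries, which overlap. The 8 endothelial markers summed to 18.2 to 74.1 CPM in luminal and 97.9 to 345 CPM in basal libraries, and all 8 were lower in luminal cells at each stage. The part of these cells in the levels of Ndufa4l2 and Cox4i2 was not tested. In lactating against virgin basal cells, where Cox4i2 was called higher, the pericyte list had 3 of 8 called higher and 1 lower, with a median of 0.67. Cspg4 had 20.9 and 17.8 CPM in lactating and 7.62 and 7.68 CPM in virgin basal libraries. The endothelial list, given above for Cox7a1, went the other way there, with 6 of 8 lower.

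Skeletal muscle markers also differed, with summed levels of 123 and 87.5 CPM in lactating basal, 14.8 and 25.1 CPM in pregnant basal and 1.61 to 9.93 CPM in luminal libraries. Most of the lactating basal sum came from Tnni2, at 99.1 and 66.4 CPM, while Ckm was at or below 0.552 CPM in these libraries. The muscle isoforms Cox6a2 and Cox8b had 0 or 1 count in each lactating basal library. Beside the luminal rise at lactation, the brown adipocyte list summed to 1359 and 1465 CPM in lactating luminal libraries, of which Cidea gave 1342 and 1452 CPM and Ucp1 0.382 and 0.0758 CPM.

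The 13 mitochondrially encoded subunits, which complete complexes I, III, IV and V, were all called higher in pregnant against virgin luminal cells, with a median of 0.83, and 7 were with library size alone (median 0.32). At lactation 2 of 13 rose further in luminal cells by edgeR and 8 by DESeq2 (median 0.20), a direction that library size alone turns round (median -0.65, 13 lower). In basal cells edgeR called 0 of the 13 in any stage change (1, 0 and 1 at an unadjusted p below 0.05, and 1, 0 and 2 by DESeq2, in pregnant against virgin, lactating against pregnant and lactating against virgin cells), with medians of 0.09 in pregnant against virgin and 0.07 in lactating against pregnant cells, where 66 nuclear members rose and 50 fell. The luminal and basal pregnancy changes of the mitochondrially encoded genes differed in 10 of 13, and the lactation changes in 0 of 13 by edgeR (1 at an unadjusted p below 0.05, 2 by DESeq2), against 12 lower with library size alone.

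The mitochondrially encoded subunits summed in luminal libraries to 37990 and 35290 CPM at the virgin stage, 64080 and 68330 CPM at pregnancy and 74320 and 78520 CPM at lactation. The basal sums were 36340 and 35690, 35800 and 39870, and 40790 and 37960 CPM. Among basal libraries the pregnant pair overlaps both the virgin and the lactating pair, while both lactating libraries lie above both virgin ones.

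Of 14 genes of the tricarboxylic acid (TCA) cycle, which feeds electrons to complexes I and II, 11 rose and 0 fell in pregnant against virgin luminal cells, and 6 rose and 2 fell in lactating against pregnant luminal cells. In basal cells 12 rose and 0 fell in pregnancy, and 0 rose and 8 fell at lactation. Of 77 tested mitochondrial ribosomal proteins, 26 rose and 1 fell in luminal pregnancy, 26 rose and 5 fell at luminal lactation, 11 rose and 1 fell in basal pregnancy, and 0 rose and 14 fell at basal lactation. Of 46 tested assembly factors, 13 rose and 3 fell, 19 rose and 4 fell, 8 rose and 2 fell, and 4 rose and 4 fell in these 4 comparisons. Of all genes tested, 21.8% were higher and 24.1% lower in luminal pregnancy, 23.7% and 24.6% at luminal lactation, 15.6% and 14.4% in basal pregnancy, and 15.7% and 17.4% at basal lactation. The shares of ribosomal proteins that rose in basal pregnancy and fell at basal lactation are near these. Under library size alone 0 of the 14 TCA genes and 0 of the ribosomal proteins rose at luminal lactation. Cyc1, the cytochrome c1 of complex III whose symbol the selection does not cover, had 251 and 252 CPM in lactating and 176 and 149 CPM in pregnant luminal libraries, and 69.9 and 62.7 CPM in lactating and 113 and 104 CPM in pregnant basal libraries.

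**Figure D5:**
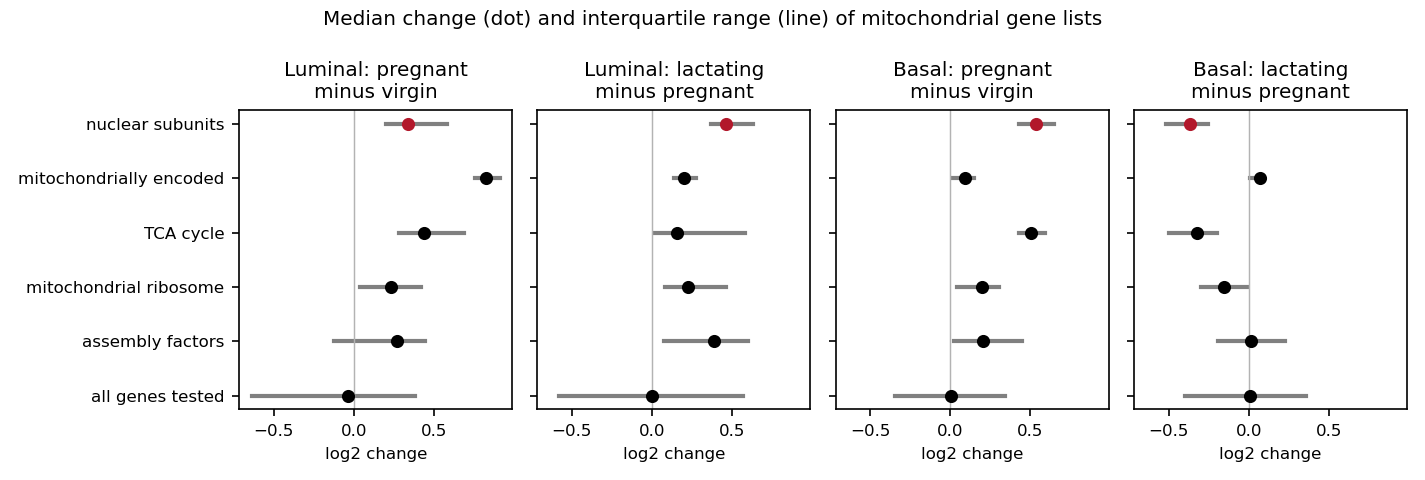
Median log2 change (dot) and interquartile range (line) of the tested nuclear subunits, the mitochondrially encoded subunits, TCA cycle genes, mitochondrial ribosomal proteins, assembly factors and all genes, in 4 stage changes on the TMM scale. The nuclear subunits lie at 0.34, 0.46, 0.53 and -0.37 from left to right, and the mitochondrially encoded subunits at 0.83, 0.20, 0.09 and 0.07. Scaled by library size alone, the luminal medians of the nuclear subunits are -0.16 and -0.39 and those of the mitochondrially encoded subunits 0.32 and -0.65.

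Regulators known to drive mitochondrial genes were read beside the subunits, and the differences between their luminal and basal changes were not tested. Esrra, which encodes the nuclear receptor ERR alpha, had luminal levels of 18.0 and 18.9 CPM at the virgin stage, 56.3 and 55.8 CPM at pregnancy and 60.8 and 66.5 CPM at lactation. Its basal levels were 12.6 and 10.1, 15.6 and 13.3, and 17.7 and 15.9 CPM. It rose in pregnant against virgin luminal cells by 1.61 (SE 0.13, edgeR adjusted p = 6.98e-07), and its change in basal cells was 0.35 (SE 0.13, edgeR adjusted p = 0.0623).

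Ppargc1a, the coactivator PGC-1 alpha, was at 0.611 to 2.73 CPM in luminal libraries. Its basal levels were 1.29 and 2.88 CPM at the virgin stage, 19.9 and 23.2 CPM at pregnancy and 42.9 and 40.1 CPM at lactation. It rose by 3.38 (SE 0.28, edgeR adjusted p = 5.58e-06) in pregnant against virgin basal cells and by 0.94 (SE 0.23, edgeR adjusted p = 0.00816) in lactating against pregnant basal cells, where 50 subunits fell. Its relative Ppargc1b had 11.9 and 17.6 CPM in lactating and 3.0 and 3.9 CPM in pregnant luminal libraries, a rise of 2.10 (SE 0.26, edgeR adjusted p = 3.01e-05). Of the 14 regulators on this list, 4 rose and 2 fell in luminal pregnancy, 2 rose and 5 fell at luminal lactation, 2 rose and 2 fell in basal pregnancy, and 1 rose and 3 fell at basal lactation. Of all genes tested, 21.8% rose and 24.1% fell in luminal pregnancy and 23.7% and 24.6% at luminal lactation. In basal cells the shares were 15.6% and 14.4% in pregnancy and 15.7% and 17.4% at lactation. No test compared the counts of 14 with these shares.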

How the data were processed

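RNA of sorted luminal and basal mammary cells was sequenced in 12 libraries, 2 per group, and the deposited table holds the authors' raw read counts per gene with a gene length. Per the submitters' processing notes, the tools included Subread 1.4.4, featureCounts and CASAVA 1.8.2, and the builds mm10 and GRCm38 are listed. Not given in the sources used here were the annotation, the strand setting and the treatment of reads with several matches. Groups came from the labels, and symbols were matched by gene ID for 25275 of 27179 genes.

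Counts were filtered with filterByExpr (minimum count 10), scaled by TMM and fitted with edgeR 4.0.16 (limma 3.58.1, R 4.3.3) over 6 group means and 12 libraries, which share an estimate of the spread. Quasi-likelihood tests were adjusted by Benjamini-Hochberg over 15969 genes in each of 11 comparisons. SEs were derived from each log2 change and its F statistic, as |change|/√F. The fit was tested on simulated data. Libraries of a group differed beyond sampling noise. Totals of 20.02 M to 24.72 M counts limit the precision of members with few counts.

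Alternatives were scaling by library size only, by library size without milk protein genes and by relative log expression factors, no filter, DESeq2 1.42.0, leaving out each library, and the replicate number as a block. Luminal and basal libraries of the same stage and number deviated together (correlations 0.203, 0.397 and 0.238 over 7012 genes). Between groups of different stages the correlations ran from -0.302 to 0.179. A pairing is not stated by the labels, and the main tests did not use one. Fits with a replicate block per stage, which would pair these libraries, were run as an alternative for the luminal minus basal comparisons. Near copies were found with BLAST 2.17.0, and figures and sums were made with Python 3.11.15, pandas 2.3.3 and matplotlib 3.10.9.

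Members and lists were chosen with earlier results of these data known. Changes were named for the 3 called members with the largest change in each direction per comparison and for members called against most of their complex, and levels for isoform sets, Sdh genes and the highest and lowest member of each complex. Other genes named with values (the Sdh and Atp5g2 tests, Cox6b1 in luminal pregnancy, Cyc1, the regulators and single markers) were chosen after their values were seen.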

Additional observations from a re-analysis of the deposited data

Results flagged for a closer look

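Stage changes that differed between luminal and basal cells were picked out by the test of the difference itself, edgeR's quasi-likelihood test of luminal minus basal. For lactating against pregnant cells 64 members were higher and 1 lower in that difference, led by Atp5o (1.65), Atp5g1 (1.65) and Uqcrq (1.53), with Cox7a2l (-0.99) the other way. Of all genes tested, 18.3% were called higher and 18.0% lower in that difference. For pregnant against virgin cells 1 member was higher, Ndufa1 (0.64), and 13 were lower, led by Cox6b2 (-1.41), Ndufa8 (-0.81) and Uqcr10 (-0.66). There 14.0% of all genes were called higher and 16.7% lower, and the share of members called lower is near the latter. The counts of both steps turned with the scaling, as given above. Groups of 2 libraries allow no test for a sample far from the others.

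The pseudogene models left out of the members carried counts above the 3 that a count of 0 allows. Over the 12 libraries Ndufs5-ps summed to 7624 counts, against 2061 for Ndufs5, and Ndufs6b to 3449, against 5765 for Ndufs6. Uqcrh-ps1 summed to 5078 counts, against 28168 for Uqcrh. Ndufa11b summed to 3296 counts, against 14109 for Ndufa11, and Atp5c1-ps to 2437, against 35743 for Atp5c1. How reads were divided between each pair was not tested.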

How the results depend on the processing

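Scaling decided the luminal stage results. With library size only, the members' medians turned to -0.16 (pregnant minus virgin), -0.39 (lactating minus pregnant) and -0.52 (lactating minus virgin) in luminal cells and to -0.062 in basal lactating minus virgin, which was -0.054 with milk protein genes left out of the library size. Counts higher and lower with library size only were 7 and 17, 0 and 49, and 3 and 55 in those luminal comparisons, 4 and 9 in basal lactating minus virgin, 31 and 13 in luminal minus basal at lactation, 0 and 42 for the difference of the pregnancy changes and 12 and 7 for that of the lactation changes; 1 was lower in basal pregnancy and 9 in luminal minus basal at pregnancy. Without milk protein genes they were 29 and 4 in luminal pregnancy and 6 and 9 in basal lactating minus virgin, with 5 lower in luminal lactating minus virgin and 1 in basal pregnancy. With no filter 3 were lower in luminal pregnancy, 1 in basal pregnancy, and 2 higher and 6 lower in the difference of the pregnancy changes. DESeq2 had 1 lower in luminal lactating minus pregnant. With the replicate block 2 members were higher in the difference of the pregnancy changes, and 3 with a replicate block by stage; no other count moved by over 1.5 times under the block.

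Leaving out 1 library at a time gave, higher and lower, 32 to 46 and 1 to 2 in luminal pregnant minus virgin, 52 to 61 and 1 to 3 in lactating minus pregnant, and 65 to 68 and 1 to 3 in lactating minus virgin. In basal cells it gave 54 to 66 and 0 to 2, 0 to 1 and 19 to 50, and 9 to 25 and 1 to 3. Luminal minus basal gave 51 to 60 and 1 to 3 in virgin, 39 to 44 and 5 to 5 in pregnant and 72 to 74 and 3 to 3 in lactating mice, and the differences 1 to 2 and 3 to 12 for pregnancy and 60 to 66 and 1 to 1 for lactation. Of 980 values of 53 named changes under alternatives, 929 kept direction and call, 51 lost the call (35 of them with a library left out) and 0 changed sign. Most of the 53 were named for their size in these same data, which favours a kept direction. Of the members' medians under alternatives, 5 changed sign. Beyond scaling, the cause was not tested.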
